A study of Homo sapiens with 3 samples.

Results

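The genes of sterol and fatty acid synthesis were examined in 5637 cells, a human bladder cancer cell line, after siRNA against MYBL2. The set held 33 genes of the 35851 rows in the deposited table. They were chosen by name as enzymes and regulators of both pathways, with earlier results of these data known, and every one had a row. They were divided into a sterol arm of 18 enzymes, a fatty acid arm of 10 enzymes and 5 genes of regulation or sterol transport that belong to neither arm. The cells, whose genotype is labelled WT, were transfected in serum-containing medium with a lipid reagent and either a control siRNA (siNC, 1 library) or siRNA against MYBL2, a MYB-type transcription factor (siMYBL2-1 and siMYBL2-2, 1 library each). Whether the pair of siMYBL2 libraries comes from different siRNAs or from repeats of 1 is not in the labels, which name no separate cultures either. All p-values therefore measure no more than sample-to-sample spread, possibly technical. The time between transfection and harvest is not given in the sources used here.

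Cells make cholesterol and fatty acids from the same acetyl-CoA. The sterol arm runs from acetyl-CoA through mevalonate, isoprenoid diphosphates, squalene and lanosterol to cholesterol. The fatty acid arm carboxylates acetyl-CoA, builds palmitate, and then lengthens, desaturates and activates the chains. Both arms are switched on by SREBP transcription factors, which SCAP escorts to the Golgi for cleavage when membrane sterol is low and which INSIG proteins hold back in the endoplasmic reticulum when it is high. SREBP-2 is best known for the sterol genes and SREBP-1 for the fatty acid genes, and on most of these promoters SREBPs work together with NF-Y, a factor that binds CCAAT boxes.

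The promoters are shown because most sterol members have a CCAAT box in this window, a larger share than among all genes. RefSeq promoter windows (GRCh38.p14, 250 bases before to 50 after the first listed start) were found for 29 of the 33 members. ACAT2, FASN, FDFT1 and SQLE had no entry. The sequences below are the 250 bases before the start, 5′ to 3′ on the gene's strand. Capitals mark the CCAAT box on either strand (CCAAT or ATTGG), the sterol regulatory element-like motif TCACNCCAC and the E-box CACGTG. HMGCS1, NSDHL and ACLY were higher in both siMYBL2 libraries and carry CCAAT boxes. CYP51A1 was also higher in both but has none in this window, ELOVL6 and FADS1, which had the largest difference within the siMYBL2 pair and from siNC respectively, have none, and SREBF2 has the only match to TCACNCCAC. Among tested members, MVK, EBP, SC5D and ACSS2 were lower in both and carry CCAAT boxes but are not printed.
HMGCS1 (chr5:43313413-43313662, minus strand): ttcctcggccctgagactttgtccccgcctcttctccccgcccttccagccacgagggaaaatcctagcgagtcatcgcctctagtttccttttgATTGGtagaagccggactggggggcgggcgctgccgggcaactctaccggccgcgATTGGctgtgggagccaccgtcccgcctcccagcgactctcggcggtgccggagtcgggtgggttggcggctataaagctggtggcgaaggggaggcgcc
NSDHL (chrX:152830813-152831062, plus strand): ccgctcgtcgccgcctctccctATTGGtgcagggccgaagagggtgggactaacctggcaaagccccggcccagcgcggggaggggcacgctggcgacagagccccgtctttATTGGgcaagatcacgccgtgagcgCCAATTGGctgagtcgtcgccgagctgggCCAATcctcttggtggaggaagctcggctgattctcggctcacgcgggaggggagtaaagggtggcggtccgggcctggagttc
ACLY (chr17:41919023-41919272, minus strand): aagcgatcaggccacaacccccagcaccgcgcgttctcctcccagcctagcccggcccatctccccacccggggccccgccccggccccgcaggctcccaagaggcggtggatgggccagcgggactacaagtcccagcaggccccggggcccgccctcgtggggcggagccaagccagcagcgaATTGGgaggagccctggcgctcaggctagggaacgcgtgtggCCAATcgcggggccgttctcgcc
CYP51A1 (chr7:92134478-92134727, minus strand): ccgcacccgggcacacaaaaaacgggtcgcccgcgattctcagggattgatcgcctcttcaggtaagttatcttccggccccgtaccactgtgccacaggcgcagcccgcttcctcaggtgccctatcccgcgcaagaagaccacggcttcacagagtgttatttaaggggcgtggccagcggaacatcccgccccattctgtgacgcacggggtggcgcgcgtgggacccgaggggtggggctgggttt
ELOVL6 (chr4:110198616-110198865, minus strand): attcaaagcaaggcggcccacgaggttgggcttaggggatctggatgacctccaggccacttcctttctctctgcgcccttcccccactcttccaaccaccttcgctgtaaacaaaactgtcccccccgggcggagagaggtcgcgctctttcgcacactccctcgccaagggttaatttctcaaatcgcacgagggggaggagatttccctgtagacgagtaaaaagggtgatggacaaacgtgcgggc
FADS1 (chr11:61817004-61817253, minus strand): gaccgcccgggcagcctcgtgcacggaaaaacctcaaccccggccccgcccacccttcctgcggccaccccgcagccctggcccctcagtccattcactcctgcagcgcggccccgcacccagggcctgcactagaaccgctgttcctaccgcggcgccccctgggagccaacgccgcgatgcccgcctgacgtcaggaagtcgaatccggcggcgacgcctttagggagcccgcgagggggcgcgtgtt
SREBF2 (chr22:41832855-41833104, plus strand): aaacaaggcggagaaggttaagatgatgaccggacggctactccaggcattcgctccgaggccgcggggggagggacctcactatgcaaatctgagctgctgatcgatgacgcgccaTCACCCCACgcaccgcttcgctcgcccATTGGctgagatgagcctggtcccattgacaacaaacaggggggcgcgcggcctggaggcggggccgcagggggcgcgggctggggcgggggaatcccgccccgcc

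A CCAAT box stood in the window of 12 of 15 matched sterol members, 5 of 9 fatty acid members and 3 of 5 regulators. The share among the first windows of all 27305 genes in the RefSeq table was 35.7%, and it was 37.4% among the 8075 of them whose symbol was tested here. Of the sterol windows, 9 held at least 2 boxes, and MVK and NSDHL held 5 each. The share of all genes with at least 2 boxes was not computed. The NSDHL boxes include a pair that overlap on opposite strands, visible above as an unbroken run of 8 capitals. Of 44 boxes in the 29 windows, 43 lay upstream of the start, at a median position of -110. Most of each window lies upstream (250 bases, against 50 after the start), and positions were not computed for all genes. These positions thus have no background to be judged against. Among the tested sterol members with a window, the box was present in 3 of 5 that were higher in both siMYBL2 libraries, in 3 of 3 that were lower in both and in 5 of 6 that went in opposite directions.

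**Figure D1:**
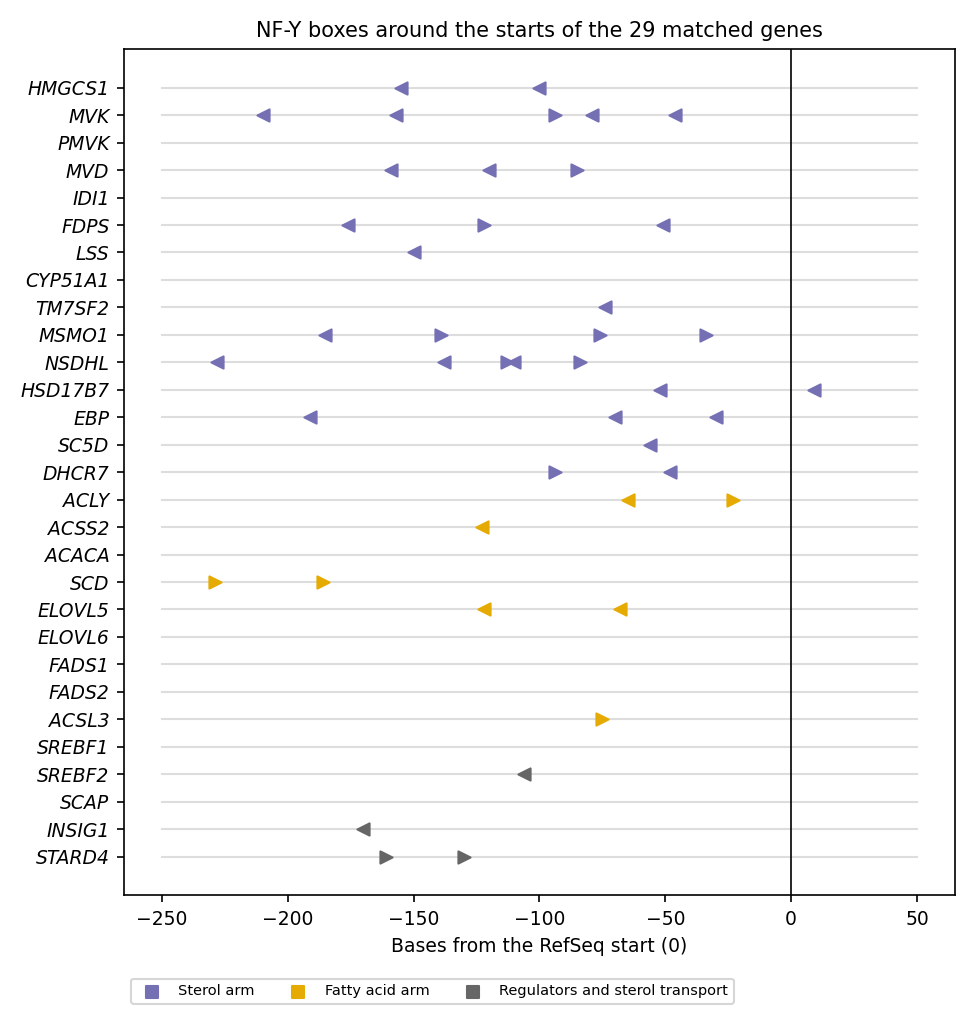
Positions of CCAAT (NF-Y) boxes in the promoter windows of the 29 matched genes, in bases from the RefSeq start. Right-pointing triangles lie on the gene's strand and left-pointing ones on the other strand. The sterol rows are the most densely marked, with up to 5 boxes in MVK and NSDHL, while PMVK, IDI1 and CYP51A1 have none.

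The other motifs were searched on both strands of the same windows. TCACNCCAC occurred in 1 of 29 members against 1.15% of all windows, and the E-box CACGTG in 5 of 29 against 7.43% of all windows and 10.5% of those of tested genes. The GC box GGGCGG occurred in 26 of 29, 14 of them among the 15 sterol windows, against 44.6% of all windows and 70.9% of those of tested genes. AACGG, the core of MYB sites, stood in 10 of 29 windows (19.9% of all, 26.9% of tested genes), and TTTGAA, the CHR element of late cell cycle genes, in 2 of 29 (15.4% and 9.61%). A match describes letters in a window and is not evidence of binding.

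The depth was 40259436 assigned reads for siNC, 41818861 for siMYBL2-1 and 46177658 for siMYBL2-2. MYBL2 was at 211 RPKM (reads scaled by exonic length and by the assigned reads of the library) with siNC, 46.0 RPKM with siMYBL2-1 and 56.3 RPKM with siMYBL2-2. It was 4.59-fold and 3.75-fold lower, as labelled (limma adjusted p 0.153). All 8 epithelial markers examined, keratins, EPCAM and CDH1, were at 1 RPKM or more, with a summed level of 2386 to 3017 RPKM per library. Of 17 markers of fibroblasts, endothelium, leukocytes, adipocytes and liver in the table, COL1A1 alone reached a mean of 1 RPKM (1.43 RPKM with siNC, 2.03 with siMYBL2-1 and 1.31 with siMYBL2-2). These are bulk samples, in which fewer cells of a kind and less RNA per cell cannot be told apart.

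Expression of the pathway was uneven. In siNC the members ranged from 0.576 RPKM for TM7SF2, a sterol C14 reductase, to 32.3 RPKM for ACLY, the ATP citrate lyase that makes cytosolic acetyl-CoA. FDPS, which makes farnesyl diphosphate, was next at 30.7 RPKM and EBP, a sterol isomerase, followed at 25.6 RPKM. The median level in siNC was 6 RPKM in the sterol arm and 9.10 RPKM in the fatty acid arm. Steps of 1 pathway thus differed by more than 10-fold in RPKM, with MVK, MVD, LSS, MSMO1, HSD17B7, SC5D and DHCR7 all under 3 RPKM in siNC. RPKM here divides by the merged length of all exons of a row. The order of different genes depends on that length and need not be the order of their transcript numbers. TM7SF2 and STARD4 had a mean under 1 RPKM over the 3 libraries and were left out of the test, which leaves 31 members among 13274 genes tested.

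No member passed the test of siMYBL2 against siNC. By limma on log2(RPKM + 1), 0 of 31 members were called higher (0.00753% of all genes tested) and 0 lower (0% of all). No member had an unadjusted p under 0.05 (4.71% of all genes tested had one), and the adjusted p was between 0.999 and 1 for all of them. By limma-voom on the reads recovered from the RPKM values, 0 members were called and 1, FADS1, had an unadjusted p under 0.05. With 1 control library the test rests on the spread of the siMYBL2 pair, so the values below are described with counting intervals at 95% confidence, which cover counting error only and not the spread between cultures. Ratios of both siMYBL2 libraries share the same siNC library, and an odd value there moves both in the same direction.

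In the sterol arm more members lay above siNC than below it. Of its 17 tested members, 8 were higher than siNC in both siMYBL2 libraries (47.1%, against 29.7% of all genes tested), 3 were lower in both (17.6%, against 36.4% of all) and 6 went in opposite directions (35.3%, against 33.9% of all, ties included). The median log2 ratio of RPKM + 1 to siNC came to 0.11 for siMYBL2-1 and 0.08 for siMYBL2-2, where the medians over all genes tested were -0.04 and -0.01. Summed over the 18 enzymes, the level was 158 RPKM with siNC, 172 RPKM with siMYBL2-1 and 164 RPKM with siMYBL2-2.

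**Figure D2:**
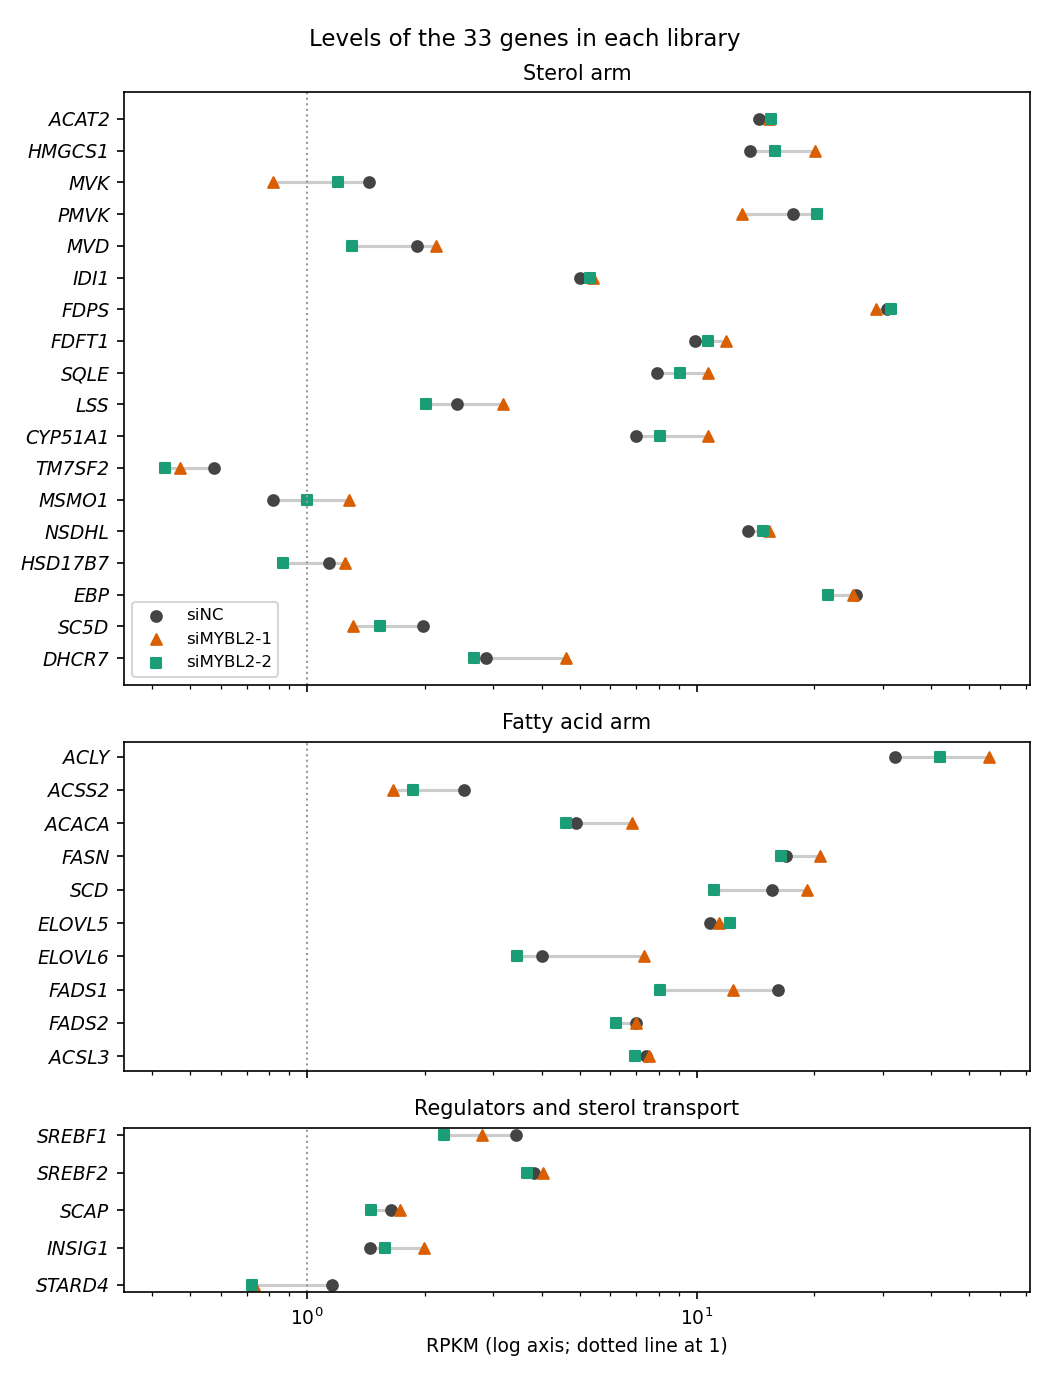
RPKM of each of the 33 genes in siNC (circles), siMYBL2-1 (triangles) and siMYBL2-2 (squares) on a log axis, grouped by arm. HMGCS1, SQLE and CYP51A1 show the order siNC, siMYBL2-2, siMYBL2-1, while ELOVL6 and DHCR7 have siMYBL2-1 alone on the right.

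At the head of the sterol pathway, ACAT2, which joins 2 acetyl-CoA, was at 14.4 RPKM in siNC, 15.3 in siMYBL2-1 and 15.5 in siMYBL2-2. HMGCS1, which makes HMG-CoA, was at 13.7 RPKM with siNC, 20.1 RPKM with siMYBL2-1 and 15.9 RPKM with siMYBL2-2. Both siMYBL2 values of HMGCS1 lay above siNC, by 1.47-fold (counting interval 1.39 to 1.54) and 1.16-fold (1.10 to 1.22). Their mean of 18 ± 2.97 RPKM (SD, n = 2) differs from siNC by a limma log2 change of 0.36 (SE 0.30, adjusted p 0.999). Only 47.7% of the exonic bases of ACAT2 belong to no other gene, since SOD2 and TCP1 overlap it on the other strand. For HMGCS1 85.0% of the exonic bases are its own, and CTD-2636A23.2 overlaps it on the other strand. The library kit keeps strand but the strand setting of the counting is not given in the sources used here, so reads in the shared bases may belong to either gene.

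Of the steps on mevalonate, only MVK was lower than siNC in both siMYBL2 libraries, and PMVK and MVD went in opposite directions. MVK, mevalonate kinase, was at 1.44 RPKM (374 reads) with siNC, 0.816 RPKM (221 reads) with siMYBL2-1 and 1.2 RPKM (359 reads) with siMYBL2-2. It was lower in both, 1.76-fold (1.48 to 2.09) and 1.19-fold (1.03 to 1.39), with a limma log2 change of -0.28 (SE 0.29, adjusted p 0.999). PMVK, phosphomevalonate kinase, was at 17.7 RPKM with siNC against 13.1 and 20.4 RPKM with siMYBL2-1 and siMYBL2-2. The siNC value of PMVK thus lay between those of the siMYBL2 pair. MVD, which makes isopentenyl diphosphate, also straddled siNC, at 1.91, 2.14 and 1.3 RPKM in the same order.

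The isoprenoid steps differed little. IDI1, the isopentenyl diphosphate isomerase, was at 5.01 RPKM with siNC against 5.42 and 5.33 RPKM with siMYBL2-1 and siMYBL2-2, and both counting intervals of its ratio to siNC include 1. FDPS was at 30.7, 28.9 and 31.6 RPKM, with siNC between the siMYBL2 libraries. Other rows on the opposite strand overlap the exons of both genes, and 82.1% of the bases of IDI1 and 81.4% of those of FDPS are their own.

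From squalene to lanosterol and its demethylation, most members were higher in both siMYBL2 libraries. FDFT1, squalene synthase, was at 9.87 RPKM with siNC against 11.9 and 10.7 RPKM with siMYBL2-1 and siMYBL2-2. SQLE, squalene epoxidase, was at 7.92 RPKM with siNC, 10.7 RPKM with siMYBL2-1 and 9.07 RPKM with siMYBL2-2. SQLE was 1.35-fold (1.26 to 1.44) and 1.15-fold (1.07 to 1.23) above siNC, with a limma log2 change of 0.28 (SE 0.29, adjusted p 0.999). LSS, lanosterol synthase, went in opposite directions, at 2.43, 3.18 and 2.02 RPKM.

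CYP51A1, the lanosterol demethylase, was at 7.00 RPKM (1148 reads) with siNC, 10.7 RPKM (1831 reads) with siMYBL2-1 and 8.05 RPKM (1514 reads) with siMYBL2-2. Its ratio to siNC was 1.54 (1.43 to 1.65) and 1.15 (1.06 to 1.24), and the limma log2 change of 0.37 (SE 0.30, adjusted p 0.999) had the largest size in the sterol arm. Only 17.8% of the exonic bases of CYP51A1 are its own. LRRD1, annotated on the same strand over most of the same exons, had 1122, 1780 and 1475 reads in siNC, siMYBL2-1 and siMYBL2-2. The reads of these rows cannot be told apart, whatever the strand setting.

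The late steps were mixed. MSMO1, the C4 methylsterol oxidase, was at 0.816 RPKM with siNC against 1.28 and 0.996 RPKM with siMYBL2-1 and siMYBL2-2 on 95, 155 and 133 reads. NSDHL, the dehydrogenase that acts after it, was at 13.5, 15.3 and 14.8 RPKM. Both genes were higher in both siMYBL2 libraries, NSDHL by 1.14-fold (1.05 to 1.24) and 1.10-fold (1.01 to 1.19). For MSMO1 the interval in siMYBL2-2 includes 1. HSD17B7, a keto reductase, straddled siNC, at 1.09-fold (0.892 to 1.33) in siMYBL2-1 and 0.757-fold (0.611 to 0.938) in siMYBL2-2, and TM7SF2 was at 0.576, 0.470 and 0.432 RPKM on 79 reads at most.

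EBP was at 25.6 RPKM with siNC against 25.1 and 21.7 RPKM with siMYBL2-1 and siMYBL2-2. SC5D, the sterol C5 desaturase, was at 1.98 RPKM with siNC, 1.31 RPKM with siMYBL2-1 and 1.54 RPKM with siMYBL2-2. Both siMYBL2 values of SC5D lay below siNC, by 1.51-fold (1.3 to 1.75) and 1.29-fold (1.12 to 1.48), with a limma log2 change of -0.30 (SE 0.28, adjusted p 0.999). DHCR7, which makes cholesterol from 7-dehydrocholesterol, was at 2.87, 4.62 and 2.68 RPKM. DHCR7 was thus 1.61-fold (1.44 to 1.81) above siNC in siMYBL2-1, while the counting interval in siMYBL2-2 includes 1 (ratio 0.932, 0.821 to 1.06).

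In the fatty acid arm 6 of 10 members went in opposite directions in the siMYBL2 libraries (60%, against 33.9% of all genes tested). Of the others, 2 were higher than siNC in both (20%, against 29.7% of all) and 2 were lower in both (20%, against 36.4% of all). In every one of those 6 the siMYBL2-1 value was the higher one. How often that holds among all genes with opposite directions was not counted. These directions take no account of counting error, for the members or for all genes. The counting intervals exclude 1 in both libraries for ACACA, SCD and ELOVL6. In siMYBL2-1 they include 1 for FADS2 (0.955 to 1.05) and ACSL3 (0.957 to 1.08). In siMYBL2-2 FASN was 1.03-fold lower, with an interval of 0.996 to 1.07. The median log2 ratio of RPKM + 1 was 0.18 in siMYBL2-1 and -0.12 in siMYBL2-2. Summed over the 10 enzymes, the level was 118 RPKM with siNC, 150 RPKM with siMYBL2-1 and 113 RPKM with siMYBL2-2.

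ACLY supplies cytosolic acetyl-CoA to both arms and had the highest RPKM of the members in all 3 libraries. It was at 32.3 RPKM (6781 reads) with siNC, 56.1 RPKM (12245 reads) with siMYBL2-1 and 42.1 RPKM (10150 reads) with siMYBL2-2. Both siMYBL2 values lay above siNC, by 1.74-fold (1.69 to 1.79) and 1.3-fold (1.27 to 1.35). The mean of 49.1 ± 9.90 RPKM (SD, n = 2) gave a limma log2 change of 0.58 (SE 0.31, adjusted p 0.999). ACSS2, which makes acetyl-CoA from acetate instead, was at 2.52 RPKM with siNC against 1.66 and 1.87 RPKM with siMYBL2-1 and siMYBL2-2. ACSS2 was lower in both, 1.52-fold (1.33 to 1.74) and 1.35-fold (1.19 to 1.53), with a limma log2 change of -0.35 (SE 0.28, adjusted p 0.999).

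The enzymes that build and first modify the chain had siNC between the siMYBL2 libraries. ACACA, acetyl-CoA carboxylase, was at 4.89 RPKM with siNC against 6.82 and 4.61 RPKM with siMYBL2-1 and siMYBL2-2 (limma log2 change 0.17, SE 0.31, adjusted p 0.999). FASN, fatty acid synthase, was at 16.9, 20.7 and 16.4 RPKM, and SCD, the stearoyl-CoA desaturase, at 15.6, 19.2 and 11.1 RPKM. In siMYBL2-1 these 3 genes were 1.39-fold, 1.23-fold and 1.23-fold above siNC. In siMYBL2-2 the ratio was 0.942 for ACACA, 0.970 for FASN and 0.712 for SCD.

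ELOVL6, which lengthens palmitate, was at 4 RPKM (1174 reads) with siNC, 7.31 RPKM (2232 reads) with siMYBL2-1 and 3.45 RPKM (1164 reads) with siMYBL2-2. Its ratio to siNC was 1.83 (1.70 to 1.97) in siMYBL2-1, the largest of the tested members in that library, and 0.864 (0.796 to 0.938) in siMYBL2-2. The limma log2 change of 0.28 (SE 0.37, adjusted p 0.999) averages values of opposite sign. ELOVL5, the elongase of polyunsaturated chains, was at 10.8, 11.4 and 12.2 RPKM.

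FADS1, the delta-5 desaturase of polyunsaturated fatty acids, was at 16.2 RPKM (6662 reads) with siNC, 12.4 RPKM (5307 reads) with siMYBL2-1 and 8.04 RPKM (3796 reads) with siMYBL2-2. It was lower in both, 1.3-fold (1.26 to 1.35) and 2.01-fold (1.93 to 2.10). The mean of 10.2 ± 3.09 RPKM (SD, n = 2) gave a limma log2 change of -0.64 (SE 0.32, adjusted p 0.999), the largest in size among the members. Its neighbour FADS2, the delta-6 desaturase, was at 6.98 RPKM with siNC against 7.00 and 6.19 RPKM with siMYBL2-1 and siMYBL2-2. These adjacent genes differed in their ratio to siNC in siMYBL2-2, 0.497 (0.477 to 0.517) for FADS1 and 0.888 (0.845 to 0.933) for FADS2. They overlap in part on opposite strands, FEN1 also overlaps FADS2 on the same strand, and 95.2% of the bases of FADS1 and 95.1% of those of FADS2 are their own. ACSL3, a long-chain acyl-CoA synthetase, was at 7.40, 7.52 and 6.94 RPKM.

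Among the regulators, SREBF1, which encodes SREBP-1, was at 3.44 RPKM with siNC, 2.81 RPKM with siMYBL2-1 and 2.25 RPKM with siMYBL2-2. Both siMYBL2 values lay below siNC, by 1.22-fold (1.12 to 1.34) and 1.53-fold (1.40 to 1.68), with a limma log2 change of -0.34 (SE 0.29, adjusted p 0.999). SREBF2, which encodes SREBP-2, was at 3.83, 4.03 and 3.67 RPKM, and its limma log2 change was 0.01 (SE 0.28, adjusted p 1). SCAP was at 1.64 RPKM with siNC against 1.73 and 1.46 RPKM with siMYBL2-1 and siMYBL2-2 (limma log2 change -0.03, SE 0.28, adjusted p 0.999, and 0.00 after centring on the median ratio of all genes). For SREBF2 and SCAP all counting intervals of the ratio to siNC include 1.

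INSIG1, itself a target of SREBPs, was at 1.45 RPKM with siNC against 1.99 and 1.58 RPKM with siMYBL2-1 and siMYBL2-2. It was 1.37-fold (1.15 to 1.64) above siNC in siMYBL2-1, and in siMYBL2-2 the ratio of 1.09 (0.906 to 1.31) is within counting error (limma log2 change 0.18, SE 0.28, adjusted p 0.999). STARD4, a carrier of cholesterol between membranes, was at 1.16, 0.732 and 0.720 RPKM on 266, 174 and 189 reads. STARD4 was lower in both siMYBL2 libraries by 1.59-fold (1.31 to 1.93) and 1.61-fold (1.33 to 1.96), with no limma value because its mean lies under the filter.

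By a rule of size, no tested member was at least 1.5-fold higher in both siMYBL2 libraries (2.64% of all genes tested) or at least 1.5-fold lower in both (4.11% of all). In siMYBL2-1 alone, 5 of 31 members were at least 1.5-fold higher (CYP51A1, MSMO1, DHCR7, ACLY and ELOVL6, against 11.2% of all genes) and 3 lower (MVK, SC5D and ACSS2, against 15% of all). In siMYBL2-2 alone, 0 were higher (4.91% of all) and 2, FADS1 and SREBF1, were lower (8.63% of all). By counting error alone, 7 of 31 members lay above siNC in both libraries (22.6%, against 16.1% of all genes) and 5 below (16.1%, against 21.1% of all). Of those 7, 6 were sterol enzymes (ACAT2, HMGCS1, FDFT1, SQLE, CYP51A1 and NSDHL) and the other was ACLY. By arm these were 6 of 17 sterol members (35.3%) and 1 of 10 fatty acid members (10%). Among the sterol rows, ACAT2 and CYP51A1 share most of their exonic bases with other genes (47.7% and 17.8% are their own). The 5 below were MVK, SC5D, ACSS2, FADS1 and SREBF1, which is 2 of 17 sterol members (11.8%), 2 of 10 fatty acid members (20%) and 1 of 4 regulators (25%). No test was made of these shares against those of all genes.

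The comparison of the arms depended on the library. The median log2 ratio of RPKM + 1 in the sterol arm minus that in the fatty acid arm was -0.07 in siMYBL2-1 and 0.19 in siMYBL2-2. Its sign thus differed between the siMYBL2 libraries, whose SD was 0.182. Taken from the mean ratio of each gene over both libraries, the difference of the arm medians was 0.042, smaller than that SD. The sterol medians of the pair, 0.11 and 0.08, were close together, and the fatty acid medians, 0.18 and -0.12, were not.

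**Figure D3:**
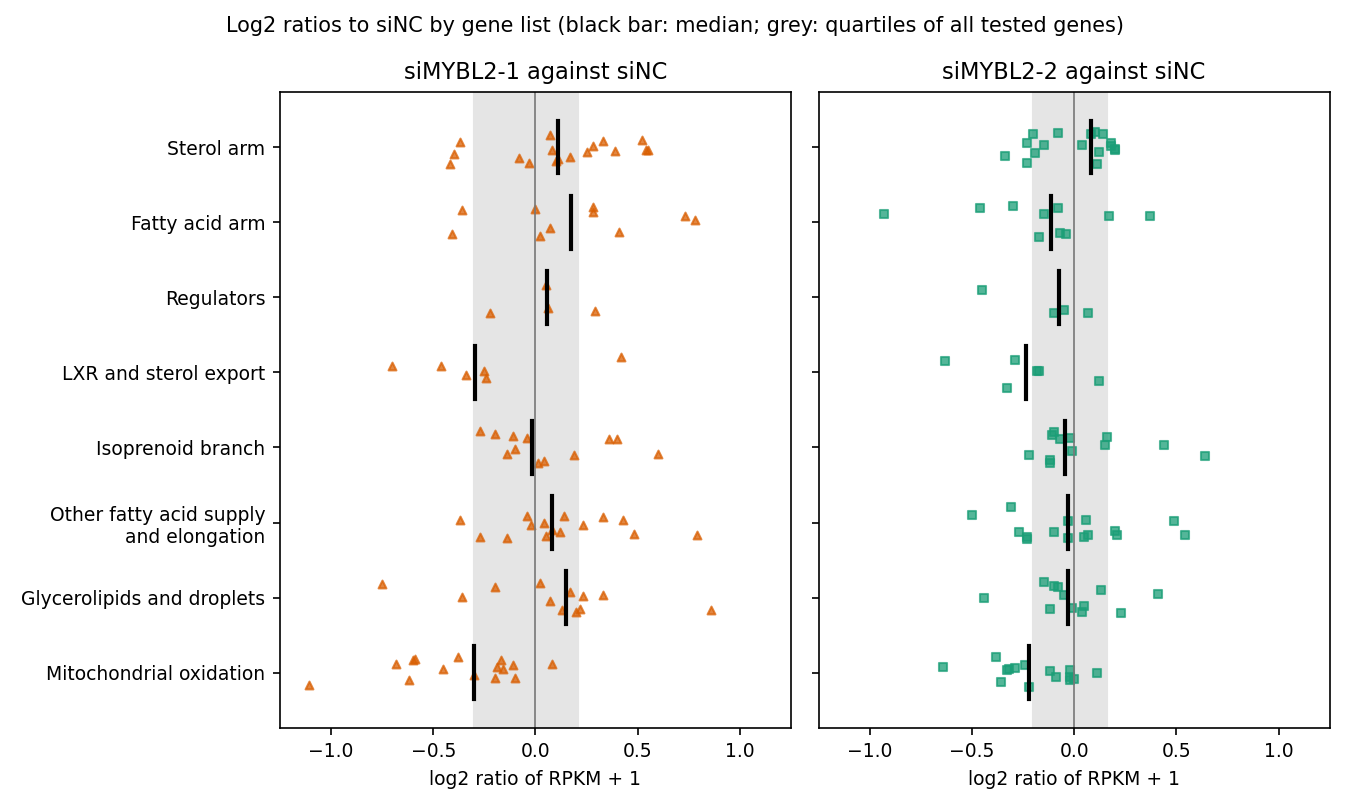
Log2 ratio of RPKM + 1 to siNC for each tested gene of the 3 member groups and 5 further lists, in siMYBL2-1 (left) and siMYBL2-2 (right). Black bars are medians and the grey band spans the quartiles of all 13274 genes tested. The sterol bar is right of 0 in both panels (0.11 and 0.08), and the fatty acid bar moves from 0.18 to -0.12.

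Within the siMYBL2 pair, 24 of 31 members were higher in siMYBL2-1 than in siMYBL2-2 (77.4%, against 47.6% of all genes tested). They were 12 of 17 sterol members, 8 of 10 fatty acid members and all 4 tested regulators. Among the further lists described below, the share was also high for other fatty acid supply genes (11 of 15, 73.3%) and glycerolipid genes (8 of 12, 66.7%). It was 41.7% for the isoprenoid branch and 33.3% each for liver X receptor and mitochondrial oxidation genes. The counting interval of the siMYBL2-1 to siMYBL2-2 ratio lay above 1 for 22 members (32.5% of all genes) and below 1 for 5 (37.5% of all). At least 1.5-fold higher in siMYBL2-1 were 6 members (10.6% of all genes), and 1, PMVK, was at least 1.5-fold lower (11.5% of all).

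ELOVL6 led this order at 2.12-fold (1.97 to 2.27) higher in siMYBL2-1 than in siMYBL2-2. SCD followed at 1.73-fold (1.65 to 1.81), DHCR7 at 1.73-fold (1.54 to 1.93), MVD at 1.64-fold (1.41 to 1.91), LSS at 1.58-fold (1.43 to 1.74) and FADS1 at 1.54-fold (1.48 to 1.61). At the other end PMVK was 1.56-fold (1.42 to 1.71) and MVK 1.47-fold (1.24 to 1.75) higher in siMYBL2-2. For siMYBL2-1 against siMYBL2-2 the median log2 ratio was 0.19 in the sterol arm, 0.36 in the fatty acid arm and -0.02 over all genes tested. This comparison does not use the siNC library, and with 1 library on each side it has no test.

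**Figure D4:**
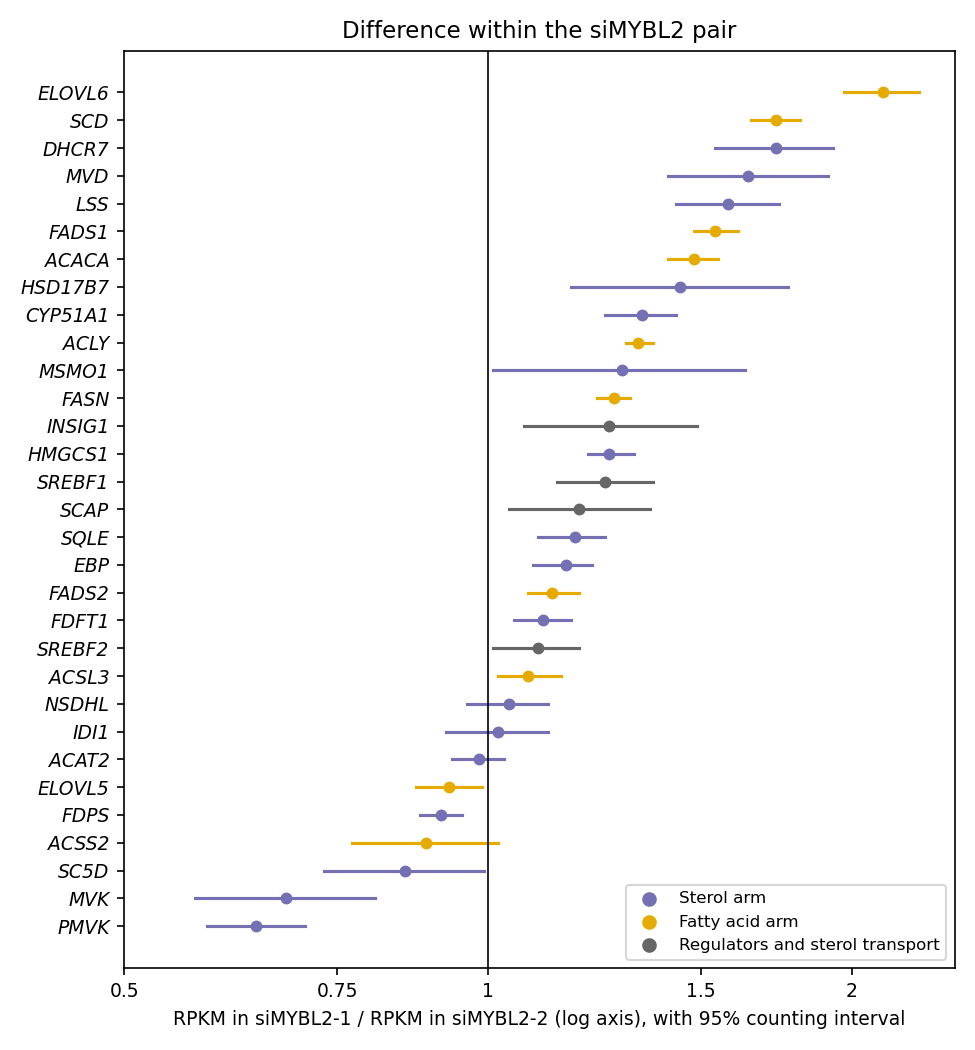
Ratio of RPKM in siMYBL2-1 to RPKM in siMYBL2-2 for the 31 tested members on a log axis, with 95% counting intervals, coloured by arm. Most points lie right of 1, from ELOVL6 at 2.12 down to PMVK at the left end.

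Genes around the pathway were taken from further lists. Genes of the liver X receptors, which act when sterol is plentiful, and of sterol handling and export were mostly lower. Of 6 tested genes, 5 were lower than siNC in both siMYBL2 libraries (36.4% of all genes tested) and 1 was higher in both (29.7% of all), with medians of -0.29 and -0.23, and none passed limma. NR1H2, which encodes a liver X receptor, was at 7.58 RPKM with siNC against 6.23 and 6.03 RPKM with siMYBL2-1 and siMYBL2-2. ABCA1, the cholesterol exporter, which was picked with its values in view, was at 2.41, 1.11 and 1.2 RPKM. Its ratio to siNC was 0.459 (0.413 to 0.509) and 0.498 (0.451 to 0.550), with a limma adjusted p of 0.989.

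Of 12 genes of the isoprenoid branch that leaves the sterol arm at farnesyl diphosphate, 3 were higher in both (29.7% of all genes tested), 5 were lower in both (36.4% of all) and 4 went in opposite directions (33.9% of all). None passed limma. The medians were -0.02 and -0.04. RABGGTB, a subunit of the Rab prenyltransferase, was at 7.99 RPKM with siNC against 10.6 and 8.95 RPKM with siMYBL2-1 and siMYBL2-2, and NUS1, a subunit of the dolichol-forming prenyltransferase, at 4.64, 7.53 and 4.21 RPKM. Of 15 further genes of fatty acid supply, elongation and activation, 4 were higher in both (29.7% of all), 2 were lower in both (36.4% of all) and 9 went in opposite directions (33.9% of all), with medians of 0.08 and -0.03. SLC25A1, the mitochondrial citrate carrier that feeds ACLY, was lower in both, at 11.4, 8.57 and 7.73 RPKM, while HACD2, a dehydratase of elongation, was at 6.64, 9.65 and 6.47 RPKM. ELOVL1, an elongase picked with its values in view, was at 3.01, 5.93 and 4.62 RPKM. It was 1.97-fold (1.71 to 2.27) and 1.53-fold (1.33 to 1.77) above siNC. It was the 1 gene of this list at least 1.5-fold higher in both (2.64% of all). No gene of this list passed limma.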

How the data were processed

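Poly(A) RNA of 3 libraries was sequenced from a DNase-treated extract, with a dUTP second strand, per the labels' protocols. The authors deposited 1 table of RPKM values with the exonic length of each row, per the file headers. The submitters' processing notes list cutadapt 1.9, HISAT2 2.0.4, StringTie 1.3.4d and hg38 without saying what each did. Not given in the sources used here are the counter, its strand setting and the annotation. Multiplied by length and divided by the value of 1 read in its library, 100% of the RPKM values came out whole (tolerance 0.001 reads), so reads could be recovered for exact conditional binomial intervals of ratios. At these depths 3 reads on 1 kilobase are 0.0650 to 0.0745 RPKM.

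The test was limma-trend (limma 3.58.1, R 4.3.3) on log2(RPKM + 1) over 13274 genes whose mean reached 1 RPKM, adjusted by Benjamini-Hochberg at 0.05, with 1 residual degree of freedom and 10.2 after moderation. It assumes that the lone siNC library varies like the siMYBL2 pair. The procedure was tested on simulated data. Folds are plain ratios of RPKM, and log2 ratios, which use RPKM + 1, understate the change of low genes. Exonic bases covered by another row on either strand were counted as shared. Members, arms and lists were chosen with earlier results of these data known. Full statistics are given for the 5 members of each arm with the largest mean log2 ratio and for the regulators. From each further list the 2 genes of at least 5 RPKM with the largest mean ratio were to be named. A further list is not reported here, and among liver X receptor genes 1 gene had that level. Other genes picked with their values in view are named as such. Alternatives were other pseudocounts, filters, scalings, gene sets, moderation, limma-voom, arm membership and size thresholds, and leaving out each siMYBL2 library.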

Additional observations from a re-analysis of the deposited data

How the results depend on the processing

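Of the 14 members with a limma value among those given full statistics, 104 refits under other settings that keep all 3 libraries kept the direction in 103 and passed the threshold in 0 (adjusted p 0.789 to 1). SCAP alone changed sign in these, to 0.00 from -0.03, after centring on the median ratio. Without siMYBL2-1 the log2 change turned to -0.07 for ACACA, -0.17 for ELOVL6 and -0.05 for SREBF2, and without siMYBL2-2 to 0.05 for SCAP. Over all rows tested, 1 gene was called higher by limma and 0 lower. The count of higher genes was 0 without the filter on low values, with a minimum of 5 RPKM, with centring on the median ratio, with trimmed mean scaling and with robust moderation. The cause was not tested. Limma-voom called 3 higher and 7 lower. The median log2 ratio of the sterol arm, 0.086 from the mean ratio of each gene over both libraries, was 0.118 over the 10 members of at least 5 RPKM, 0.113 with centring and 0.117 with trimmed mean scaling. With 1 siMYBL2 library left out it was 0.076 to 0.109, that of the fatty acid arm -0.115 to 0.175 and their difference -0.067 to 0.191. The count of members 1.5-fold higher, 0 in both libraries, was 0 to 5 with 1 library left out, and that of members 1.5-fold lower was 2 to 3. At the lower alternative threshold of size it was 1 higher (ACLY) and 3 lower (SC5D, ACSS2 and FADS1), and without the filter 1 was 1.5-fold lower (STARD4). No paired analysis was possible because the siNC library carries no replicate number and stands alone. A quasi-likelihood test on recovered reads was not run. Leaving out a siMYBL2 library leaves 1 against 1, a value with no test. MVK, MVD, MSMO1, HSD17B7, SC5D, INSIG1, STARD4 and TM7SF2 rest on 67 to 443 reads per library. Their counting intervals are wider than those of deep members such as ACLY, and small differences may be missed by them. The limma SE did not follow depth in this way, at 0.29 for MVK and 0.31 for ACLY.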

Other observations

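Genes of mitochondrial fatty acid oxidation, the route opposite to synthesis, lay mostly below siNC. Of 15 tested genes, 12 were lower in both siMYBL2 libraries (36.4% of all genes tested), 0 were higher in both (29.7% of all) and 3 went in opposite directions (33.9% of all). Median log2 ratios to siNC were -0.30 (siMYBL2-1) and -0.22 (siMYBL2-2), and no gene passed limma. DECR1, a reductase needed for unsaturated chains, was at 14.9 RPKM with siNC against 6.40 and 11.4 RPKM with siMYBL2-1 and siMYBL2-2. ETFB, a subunit of the electron transfer flavoprotein, was at 10.5, 6.22 and 9.83 RPKM. CPT1B, a carnitine palmitoyltransferase picked with its values in view, was at 5.04, 2.98 and 2.87 RPKM. The counting interval of the ratio to siNC lay below 1 in both libraries for 9 of the 15 genes (21.1% of all genes tested).

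Genes of glycerolipid synthesis and lipid droplets were found on either side of siNC. Of 12 tested genes, 5 were higher in both siMYBL2 libraries (29.7% of all genes tested), 3 were lower in both (36.4% of all) and 4 went in opposite directions (33.9% of all), with median log2 ratios of 0.15 and -0.03, and none passed limma. AGPAT1, an acyltransferase that makes phosphatidic acid, was at 8.55 RPKM with siNC against 4.66 and 6.05 RPKM with siMYBL2-1 and siMYBL2-2. GPAT3, which acylates glycerol phosphate, was at 8.03, 10.3 and 8.32 RPKM. AGPAT5, also picked with its values in view, was at 3.18, 6.57 and 4.56 RPKM.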
